A study of Micropterus salmoides with 45 samples.

Results

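The late rise is a set of 140 liver genes of the freshwater fish Micropterus salmoides, the largemouth bass. In severe hypoxia they stood below an upper cut at 4 and 8 h, some of them under control, and above control at 12 and 24 h. Members were chosen by their measured values. On the log2(RPKM + 1) scale, the severe group mean minus the control group mean had to be under 0.5 at 4 and 8 h and at least 0.8 at 12 and 24 h, and the mean over the 15 control libraries had to be 2 to under 100 RPKM. RPKM is the number of reads of a gene relative to its length and to the depth of the library. The 140 members were 5.26% of the 2660 genes in the tables and 6.52% of the 2147 genes in that control range. Depending on the library, between 10.89% and 14.95% of its total read number fell on the 2660. Shares and medians of all listed or tested genes below therefore describe this subset, not every gene of the liver.

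Fish of 6 months were held at 20 °C in 9 tanks of 30, with 3 tanks for each oxygen level, and were not fed during the trial. Controls were kept at 7 mg/L dissolved oxygen, the moderate hypoxia group at 3.0 ± 0.2 mg/L and the severe hypoxia group at 1.2 ± 0.2 mg/L, the oxygen being lowered with nitrogen gas. Time was counted from the moment the level was reached, and liver was taken at 0, 4, 8, 12 and 24 h from 5 fish a tank, which gave 3 libraries for each level and time and 45 in all. The question of the study was the liver's use of glucose and of lipid under acute oxygen shortage. Whether a group's 3 libraries stem from different tanks or fish is not in the labels, so p-values reflect only the spread of these libraries, which may be partly technical. Each level had its own tanks, and an effect of the tank and an effect of the oxygen cannot be told apart. Within a level, time passed together with fasting and with the hour of the day, and these cannot be told apart either.

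When oxygen falls, vertebrate cells stop degrading hypoxia-inducible factors, transcription factors that raise genes of glucose uptake, glycolysis and blood supply. The liver stores glycogen and lipid and releases glucose to the rest of the body, so its metabolism shifts during oxygen shortage. Responses to an acute stress unfold in time: some genes move within hours of the onset and others only later in the exposure.

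The genes carry identifiers of a de novo assembly, in which the first part, up to the letter g, is the assembly component, a group of related assembled sequences. The files do not pair these identifiers with names, and none matched the reference gene table at hand, so roles, pathway lists, sequences and the liver's own markers could not be brought to bear, and the labelled tissue was not checked against markers. The members came from 134 components, and 5 components held 11 members between them. Genes of a shared component can share reads, and how reads were divided between them is not known, so their values are uncertain and not independent. The median recovered length of the members was 3142 bp (290 to 9375 bp), against 2584.5 bp over all listed genes. Their median control level was 5.91 RPKM (2.02 to 83.2 RPKM), close to the 5.24 RPKM of all listed genes, and 101 of the 140 were under 10 RPKM. Library totals recovered from the values ran from 29986862 to 33433838 reads, and a member had a median of 701 reads in a library; 3 members fell under 10 reads in at least 1 library.

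Both sides of the defining contrast held libraries that stood apart. Severe 8 h replicate 3 already had the members raised: it exceeded all 3 control 8 h libraries in 122 of the 140 members, against 25 for replicate 1 and 53 for replicate 2. Over all listed genes those shares were 44.3%, 36.2% and 37.1%. The rule capped the mean of these 3 severe libraries relative to control, so the member counts and the shares of all genes are not comparable. The median distance of severe 8 h replicate 3 from the control mean over the members was 0.63 (log2), against -0.07 and 0.13 for replicates 1 and 2. Over all listed genes these medians were 0.08, -0.03 and -0.04. In replicate 3, 49 members were at 0.8 or more. The share of all listed genes at 0.8 or more was not counted, so nothing is read from the 49. Control 24 h replicate 1 was low: it was the lowest of the 3 control 24 h libraries in 105 of the 140 members, against 57.9% of all listed genes. Its mean log2(RPKM + 1) over all genes listed in every library was 2.49, beside 2.81 and 2.82 in replicates 2 and 3. The rule favours genes with low control 24 h values, so the 105 members and the share of all listed genes are not comparable. Control 4 h replicate 3 was high in the members, with a mean of 3.29 beside 2.84 and 2.82 in replicates 1 and 2. Over all genes listed in every library it was lower, with 2.52 beside 2.71 and 2.72. The rule favours genes with high control 4 h values, so nothing is read from this contrast between members and all genes. Without control 4 h replicate 3 the members' median severe-minus-control difference at 4 h was 0.18 in place of 0.09. Of the 140 members, 115 then still met the rule. The table of control 8 h replicate 2 ended after 2527 genes, and 8 members lack a value there. Means per library were therefore taken over the 132 members with a value in every library.

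**Figure D1:**
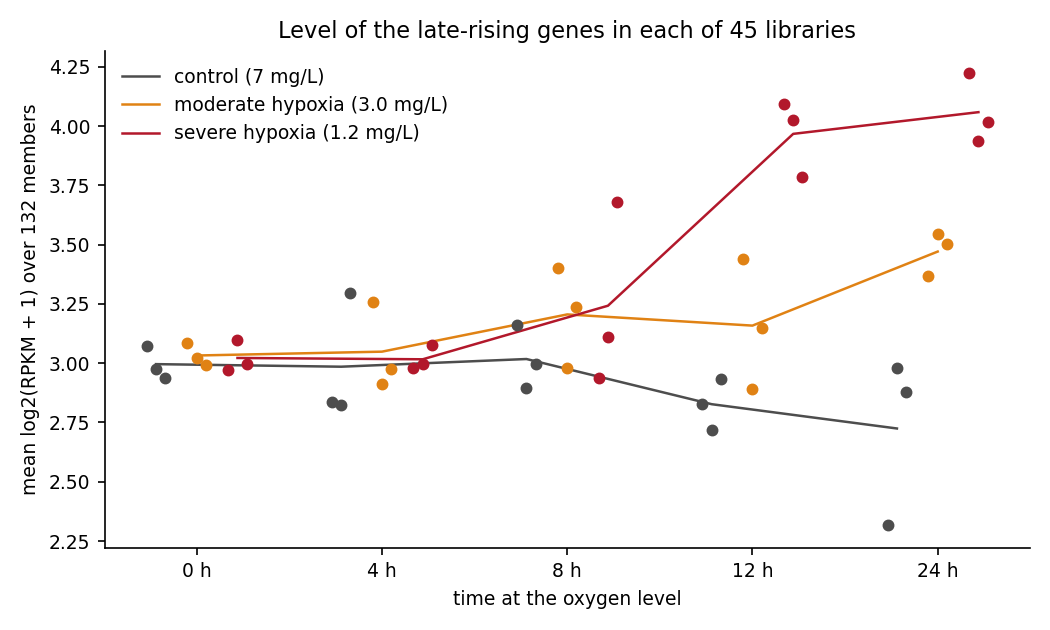
Mean log2(RPKM + 1) over 132 members (vertical axis) in each of the 45 libraries, by sampling time on a scale of equal steps (horizontal axis); points are libraries and lines join the means of 3. The severe libraries at 12 and 24 h sit between 3.79 and 4.22, the moderate libraries at 24 h between 3.37 and 3.55, and the controls at 12 and 24 h between 2.32 and 2.98.

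The severe libraries left the range of the controls at 12 h, and 1 of them did so at 8 h. Over the 132 members, the mean level was 2.98, 3.00 and 3.07 (log2) in the severe 4 h libraries, and 2.84, 2.82 and 3.29 in the controls of that time. At 8 h the severe libraries stood at 2.94, 3.11 and 3.68 and the controls at 3.16, 2.90 and 3.00, so only severe replicate 3 was above every control. At 12 h the severe libraries reached 4.09, 4.02 and 3.79 while the controls held 2.83, 2.72 and 2.94. At 24 h the severe libraries held 4.22, 3.94 and 4.02 and the controls 2.32, 2.98 and 2.88. The groups did not overlap at either late time, and the rule fixed the distance between their means. In bulk tissue a changed level per cell and a changed number of cells of a type cannot be told apart, here and in every result below.

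Per gene, the median severe-minus-control difference at 4, 8, 12 and 24 h was 0.09, 0.27, 1.06 and 1.28 (log2), where all tested genes had medians of 0.08, -0.01, 0.08 and 0.22. These differences chose the members and are given as a description. At 12 h 88 members were at least 2-fold above control in RPKM + 1, at 24 h 114 were, and 73 were at both. In RPKM itself the fold changes of low genes are larger. The difference was larger at 24 h than at 12 h in 93 members. It lay below 0 in 56 members at 4 h and in 27 at 8 h, and ran from -0.84 to 0.49 at 4 h and from -0.42 to 0.4995 at 8 h. Of all tested genes 55.2% lay above 0 at 4 h and 49.6% at 8 h. The limma fit over all genes called 0 members higher at 4 h and 0 at 8 h, where it called 6.63% and 21.5% of all tested genes and where 1 and 4 members had an unadjusted p under 0.05. It called 137 members higher at 12 h, where it called 36.8% of all tested genes, and 139 at 24 h, where it called 40.7%; the rule used the same values, so nothing is read from these counts. Without control 24 h replicate 1 the median difference at 24 h was 1.098, and 26 members fell under 0.8. Without severe 8 h replicate 3 the median difference at 8 h was 0.06.

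The median level of a member in the severe group went from 6.71 RPKM at 0 h through 6.60 at 4 h and 7.75 at 8 h to 14.0 at 12 h and 14.5 at 24 h. In the moderate group it was 6.49, 6.82, 7.79, 7.31 and 9.39 RPKM at the 5 times, and in the controls 6.46, 6.03, 6.23, 5.44 and 5.10 RPKM.

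The member with the largest mean difference at 12 and 24 h was c87088_g3, with 2.08 (log2). It held 0.766 to 4.28 RPKM in the control libraries, apart from 0.077 RPKM, or 2 reads, in control 24 h replicate 1. The severe libraries held 1.02, 2.35 and 1.78 RPKM at 0 h, 2.97, 1.41 and 6.29 RPKM at 8 h, 9.57, 5.49 and 9.68 RPKM at 12 h and 8.49, 8.29 and 12.8 RPKM at 24 h. Every severe library at the late times was above every control of the study, and at 8 h only replicate 3 was. In the moderate group the gene stood at 2.22, 2.91 and 2.84 RPKM at 24 h, within its range at moderate 0 h (1.15, 4.49 and 3.44 RPKM).

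Next came c85736_g15, with 1.98 (log2). Its severe libraries held 10.7, 11.8 and 8.20 RPKM at 12 h and 11.0, 5.00 and 8.49 RPKM at 24 h. The controls held 1.69, 1.51 and 2.67 RPKM at 12 h and 0.690, 2.18 and 0.890 RPKM at 24 h, but 3.67, 1.53 and 11.9 RPKM at 4 h and 8.01, 1.77 and 1.61 RPKM at 8 h. Single control libraries at 4 and 8 h thus reached the level of the severe group at 24 h, and their high values entered the early differences of this gene.

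The smallest mean differences among the members were those of c84903_g4 and c88907_g7, with 0.84 and 0.85 (log2). For c84903_g4 the severe 24 h libraries held 15.3, 11.6 and 11.1 RPKM and the controls 4.29, 7.24 and 9.04. For c88907_g7 they held 8.89, 8.25 and 10.8 RPKM against 2.25, 8.18 and 5.84. The groups did not overlap for either gene, but the gap for c88907_g7 was narrow, and its lowest control value was in replicate 1.

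The most abundant members in the controls were c83827_g1 and c85620_g2, with means of 83.2 and 80.5 RPKM over the 15 control libraries. For c83827_g1 the severe libraries held 234, 142 and 134 RPKM at 12 h and 256, 255 and 183 RPKM at 24 h. The controls held 66.2, 44.1 and 50.6 RPKM at 12 h and 46.9, 175 and 47.8 RPKM at 24 h. Control 24 h replicate 2 was thus close to the lowest severe library, and the spread between controls was wide (89.8 ± 73.5 RPKM, SD, n = 3). Moderate libraries of c83827_g1 averaged 209 ± 120 RPKM at 12 h and 208 ± 41.6 RPKM at 24 h, and severe ones 170 ± 55.8 and 231 ± 41.9 RPKM. For c85620_g2 the means at 12 and 24 h were 124 and 161 RPKM in moderate hypoxia and 126 and 152 RPKM in severe hypoxia. The controls of c85620_g2 averaged 63.4 and 79.7 RPKM at these times.

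At each cut of the rule a member and a gene outside lay close to it. The counts of genes failing at a threshold alone include genes at any distance from it. At 8 h the nearest member inside was c81535_g3 with 0.4995 and the nearest gene outside c85009_g2 with 0.5008; 146 genes failed the rule at this threshold alone. At 12 h c84370_g5 (0.8034) was inside and c84811_g1 (0.7988) outside, with 177 genes failing at this threshold alone. At 24 h c88907_g7 (0.8005) was inside and c90253_g2 (0.7985) outside, with 42 such genes. At 4 h c85713_g4 (0.49) was inside and c91418_g2 (0.51) outside, with 20 such genes.

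The difference from control held both a rise in the severe group and, in many members, a lower level in the late controls. Against its own 0 h, the severe group had a median change of 0.94 at 12 h and 1.03 at 24 h over the members, and the control group of -0.16 and -0.27 (log2). All tested genes had medians of 0.03 and 0.12 in the severe course and 0.00 and -0.03 in the control course. The severe course alone reached 0.8 in 94 members at 12 h, in 91 at 24 h and in 80 at both. In 19 members it was under 0.5 at 24 h. The control course was at or below -0.5 in 17 members at 12 h and in 39 at 24 h. The shares of all tested genes at these cuts were not counted for either course. The rule also favours low late controls, so no excess of members is read from these counts. Without control 24 h replicate 1 the control median at 24 h was -0.08. When severe 0 h took the place of the controls in the rule, a choice added after the data were seen, 100 genes passed, of which 54 were among the 140 members. These courses use libraries that the rule used, and are given without a test.

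**Figure D2:**
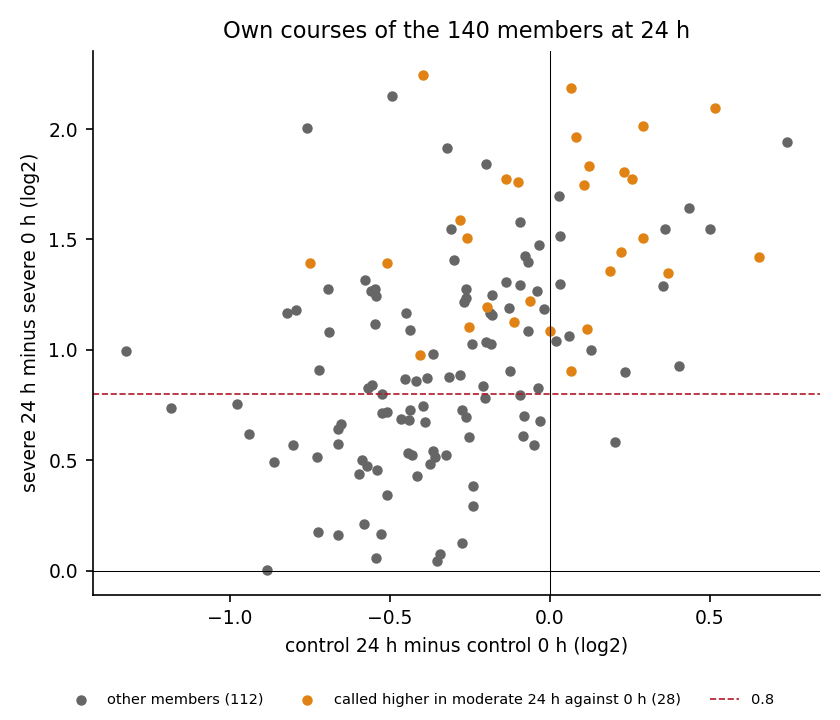
For each of the 140 members, the log2 change of the control group from 0 to 24 h (horizontal axis) and of the severe group from 0 to 24 h (vertical axis); orange points are the 28 members called higher in moderate hypoxia at 24 h than at 0 h, grey points the other 112, and the dashed line marks 0.8. Many grey points lie left of 0, below the dashed line, where a fall in the controls adds to the difference.

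**Figure D3:**
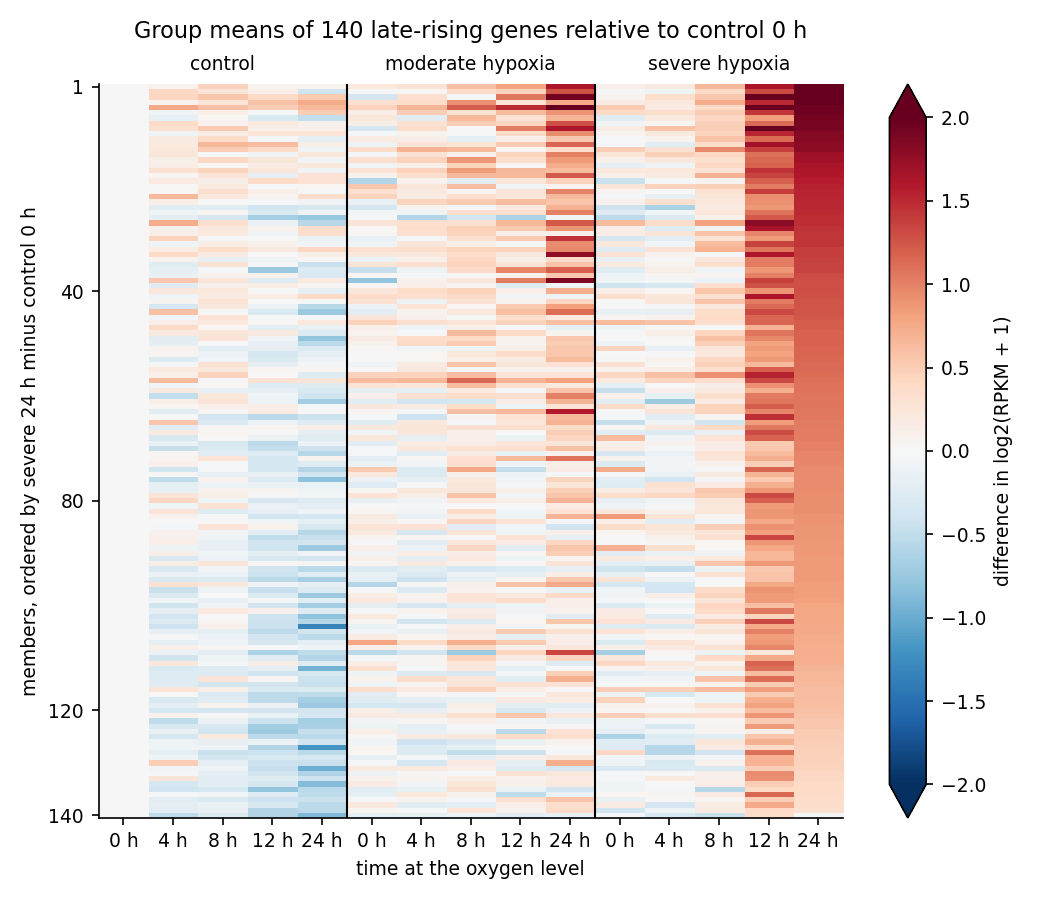
Group means of the 140 members minus their control 0 h mean, in log2(RPKM + 1), for 5 times in control, moderate and severe hypoxia (columns); each line of the map is a gene, ordered by the severe 24 h value, with red higher and blue lower than control 0 h. The severe columns turn red between 8 and 12 h, the moderate 24 h column is red in part of the genes, and the lower part of the control 24 h column is blue.

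At 0 h no member passed the test. The severe 0 h libraries entered the rule nowhere, and the control 0 h libraries only through the control level. Over the 132 members the mean level was 2.97, 3.10 and 3.00 (log2) in the severe 0 h libraries, 3.09, 3.02 and 2.99 in the moderate and 3.07, 2.98 and 2.94 in the control. The median difference from control was -0.01 in severe and 0.03 in moderate hypoxia. The limma test called none of the 140 members in either comparison, and 0% of all tested genes in either direction. At an unadjusted p under 0.05 it had 1 member higher and 1 lower in severe hypoxia, and 1 higher and 0 lower in moderate hypoxia; voom on the recovered reads also called 0.

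The smallest p at severe 0 h was that of c86301_g3, with 4.50, 4.97 and 2.86 RPKM against 2.08, 2.25 and 2.43 in control. The difference was 0.63 (log2, SE 0.29, limma adjusted p = 0.767) and did not pass. At moderate 0 h it was that of c82306_g4, with 4.42, 3.56 and 2.78 RPKM against 1.55, 1.89 and 2.52 (difference 0.62, SE 0.28, limma adjusted p = 1.0). Neither pair of groups overlapped, but neither difference passed once p-values were adjusted over all tested genes.

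The moderate libraries entered the rule nowhere, so moderate hypoxia against its own 0 h is a test on values that the rule did not use. How the 2660 listed genes were selected is not given, and moderate values may have had a part in that. The spread in the fit was estimated from all 45 libraries, those of the rule included. At 24 h 28 of the 140 members were called higher than at moderate 0 h and none was called lower, the called changes being 0.63 to 2.67 on the log2 scale. This was 20% of the members, and 8.66% of all tested genes were called higher and 8.66% lower. The median change of the members was 0.36 (log2), with 109 above 0 and 31 below. Over all tested genes the median was -0.11, with 42.8% above 0 and 56.4% below. At an unadjusted p under 0.05, 46 members were higher and 0 lower. The share of all tested genes at that threshold was not counted, so no excess of members is read from this. In 59 members all 3 moderate 24 h libraries were above all 3 at 0 h (19.7% of all tested genes), and in 5 all were below (26.3%). The called members came from 26 components.

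Earlier moderate times gave no call among the members. The limma test called 0 members higher at 4, 8 and 12 h and 0 lower, where 0.0377%, 0% and 0.113% of all tested genes were higher and 0%, 0% and 0.188% lower. At an unadjusted p under 0.05 there were 3, 12 and 16 members higher and 0, 0 and 2 lower, and voom on the recovered reads called 0 as well. The median changes were 0.03, 0.17 and 0.07 (log2), beside -0.05, 0.00 and -0.11 over all tested genes. After quantile normalization the median of all tested genes at 12 h was 0.00 and that of the members 0.17. All 3 libraries were above all 3 of 0 h in 9 members at 4 h (3.88% of all tested genes), 19 at 8 h (6.36%) and 13 at 12 h (5.05%). All 3 were below in 7 members at 4 h (5.46% of all tested genes), in none at 8 h (5.72%) and in 1 at 12 h (10.2%).

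Per library, the moderate means over 132 members were 3.09, 3.02 and 2.99 (log2) at 0 h and 3.26, 2.91 and 2.98 at 4 h. At 8 h they were 3.40, 2.98 and 3.24. At 12 h they came to 3.44, 2.89 and 3.15, and at 24 h to 3.37, 3.55 and 3.50. The 24 h libraries were all above the 0 h libraries and close to each other. The 12 h libraries were spread, with replicate 1 at the level of 24 h and replicate 2 below every 0 h library. Without moderate 12 h replicate 2, 3 members were called higher at 12 h, and without moderate 0 h replicate 2, 2 were. The share of all tested genes called in these fits was not counted.

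**Figure D4:**
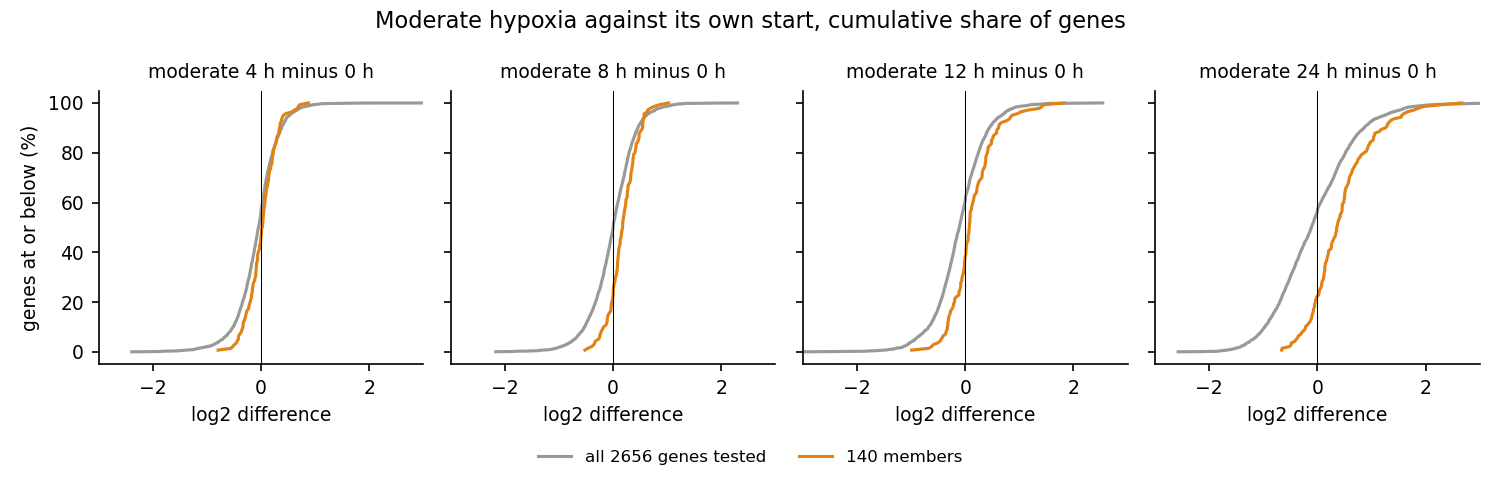
Cumulative share of genes in percent (vertical axis) at or below a given log2 change from moderate 0 h (horizontal axis, cropped at 3 in both directions), at 4, 8, 12 and 24 h of moderate hypoxia; orange is the 140 members and grey all 2656 genes tested. The curves lie close together at 4 h (medians 0.03 and -0.05), and at 24 h the orange curve lies to the right, with medians of 0.36 and -0.11.

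The largest rise at moderate 24 h was that of c89745_g6. It held 4.66, 9.84 and 1.94 RPKM at moderate 0 h, 29.5, 6.55 and 34.1 RPKM at 12 h and 34.2, 37.3 and 33.5 RPKM at 24 h, with means of 5.48 ± 4.01 and 35.0 ± 2.04 at 0 and 24 h (SD, n = 3). The change at 24 h was 2.67 (log2, SE 0.47, limma adjusted p = 0.000272). The groups did not overlap, and the 12 h value of replicate 2 stayed in the 0 h range. In severe hypoxia it stood lower at 24 h, with 27.4, 17.6 and 25.3 RPKM, and the controls of that time held 10.8, 10.9 and 8.99.

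The next was c83571_g14, with 8.64, 8.69 and 5.59 RPKM at moderate 0 h, 24.8, 22.7 and 18.1 RPKM at 12 h and 40.8, 35.1 and 47.0 RPKM at 24 h. The change at 24 h was 2.29 (log2, SE 0.45, limma adjusted p = 0.000987). All libraries at 12 and at 24 h were above all at 0 h. Its severe libraries held 5.49, 11.5 and 48.9 RPKM at 8 h, 43.2, 41.1 and 44.3 RPKM at 12 h and 67.2, 29.5 and 55.0 RPKM at 24 h. At severe 8 h the single high library was again replicate 3.

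A second member of its component, c83571_g1, stood at a lower level and was also called. It held 2.94, 2.08 and 1.44 RPKM at moderate 0 h and 9.67, 11.1 and 12.6 RPKM at 24 h (change 1.96, SE 0.47, limma adjusted p = 0.00449). Its severe 8 h libraries held 0.974, 4.34 and 15.1 RPKM. Both genes belong to the same component and are not independent of each other.

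The time shape of the rule, late against early, was also tested in the moderate libraries. The mean of 12 and 24 h was above that of 4 and 8 h in 96 members and below it in 44. Of all tested genes 41.2% were above and 57.9% below. The limma fit called 7 members higher (2.37% of all tested genes) and 0 lower (1.24%), with a median of 0.13 over the members and -0.08 over all tested genes. Unadjusted p-values fell under 0.05 for 28 members higher and 2 lower. The count of 7 rested on single libraries: it was 3 without replicate 2 at 4, 8 or 24 h or replicate 1 at 12 h, 4 without replicate 3 at 12 h, and 15 without replicate 2 at 12 h.

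The largest of these late rises were those of c90424_g2 and c83571_g14. The gene c90424_g2 held 2.44, 1.27 and 3.53 RPKM at moderate 4 h, 2.50, 0.782 and 1.87 RPKM at 8 h, 4.27, 3.35 and 7.39 RPKM at 12 h and 6.48, 9.36 and 15.2 RPKM at 24 h. The late libraries were above the early ones, except for the 12 h library at 3.35 RPKM, which was below the highest 4 h library. The difference was 1.43 (log2, SE 0.31, limma adjusted p = 0.00793). By the recovered lengths this is the shortest member, of 290 bp, so that 1 RPKM stands for fewer reads than in any other. For c83571_g14 the difference was 1.34 (SE 0.32, limma adjusted p = 0.0178).

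Any difference among the 5 moderate times was found in 19 members, or 13.6%, against 9.07% of all tested genes (limma F-test), and 33 had an unadjusted p under 0.05. The count was 11 without moderate 0 h replicate 3, and 8, 5 and 4 without replicates 1, 2 and 3 of moderate 24 h. The smallest p was that of c84370_g5 (limma adjusted p = 0.000378). It rose from 3.42, 4.50 and 3.64 RPKM at 0 h to 14.3, 10.2 and 15.5 RPKM at 24 h, and held 4.89, 2.13 and 4.35 RPKM at 4 h, 7.57, 4.81 and 6.10 RPKM at 8 h and 7.35, 6.92 and 5.20 RPKM at 12 h. The 4 h libraries overlapped those of 0 h, the 8 and 12 h libraries were all above them, and the 24 h libraries were above all others. Its severe 24 h libraries, with 13.2, 6.70 and 7.59 RPKM, had a lower mean than the moderate ones. The next was c89745_g6 (limma adjusted p = 0.00269).

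The member with the smallest p at moderate 12 h was c91766_g4. Its moderate libraries held 28.9, 48.4 and 32.7 RPKM at 0 h, 105, 44.0 and 115 RPKM at 12 h and 80.1, 88.3 and 112 RPKM at 24 h. At 12 h replicate 2 lay within the 0 h range while the other libraries were above it. The change was 1.16 at 12 h (log2, SE 0.29, limma adjusted p = 0.0650) and 1.35 at 24 h (SE 0.29, limma adjusted p = 0.00211). Without moderate 12 h replicate 2 the 12 h change was 1.60 (limma adjusted p = 0.00364), and without moderate 0 h replicate 2 it was 1.37 (limma adjusted p = 0.0221).

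The smallest p at moderate 4 and 8 h was that of c87576_g9. It held 4.30, 4.84 and 3.38 RPKM at 0 h, 7.53, 5.61 and 6.93 RPKM at 4 h, 9.31, 5.56 and 6.54 RPKM at 8 h and 7.11, 7.76 and 6.83 RPKM at 24 h. All moderate libraries after 0 h were above those of 0 h, yet the changes of 0.57 at 4 h (SE 0.25, limma adjusted p = 0.900) and 0.64 at 8 h (SE 0.25, limma adjusted p = 0.493) did not pass. In severe hypoxia it stood at 17.0, 11.7 and 16.6 RPKM at 24 h, above the moderate libraries.

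**Figure D5:**
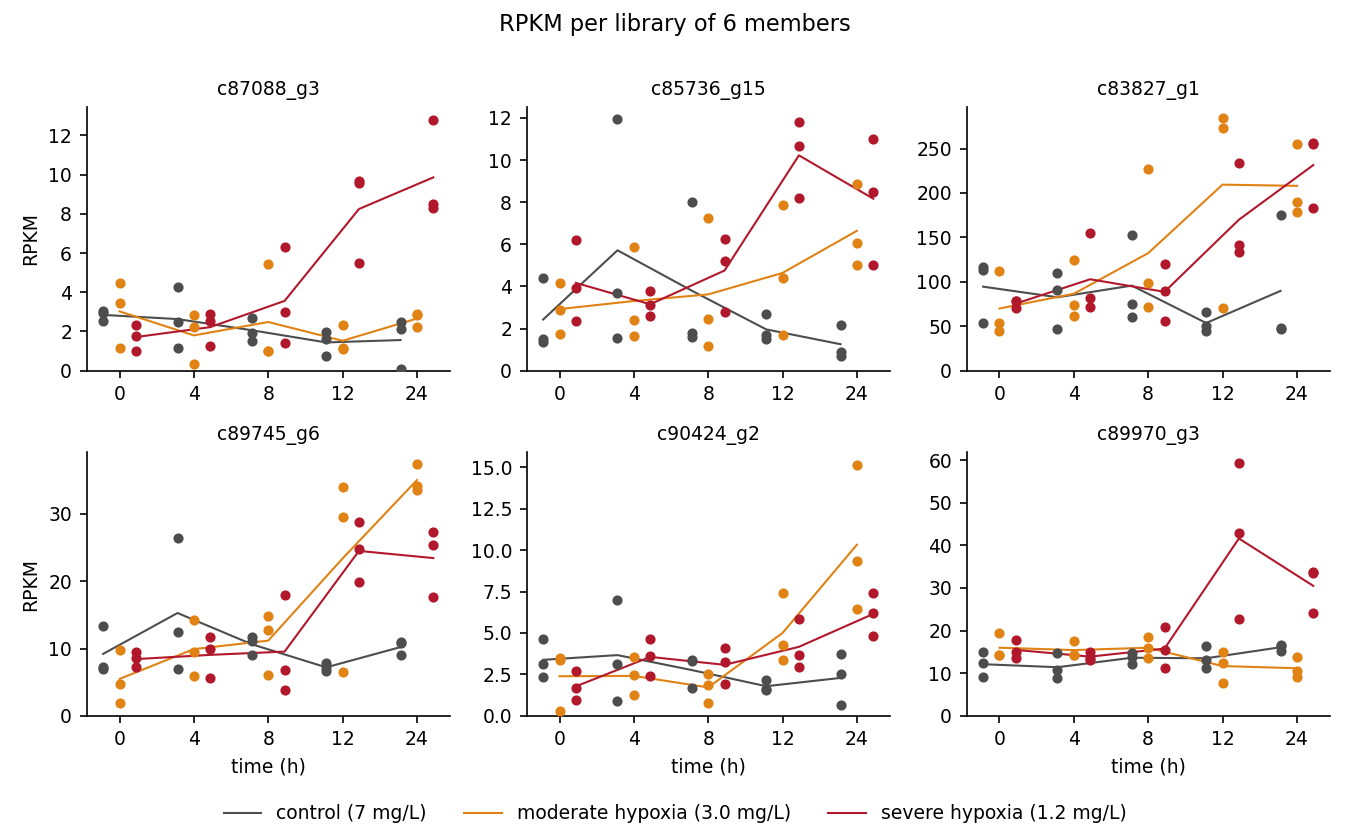
RPKM (vertical axis, scaled per panel from 0) of 6 members in each library by sampling time in hours on equal steps (horizontal axis), with lines through the means of 3 libraries; grey is control, orange moderate and red severe hypoxia. The panels show genes raised at 12 and 24 h of severe hypoxia, of which c89745_g6 and c90424_g2 stand at least as high in moderate hypoxia at 24 h (35.0 and 10.3 RPKM against 23.4 and 6.15) and c87088_g3 and c89970_g3 far lower.

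Side by side at 12 and 24 h, the moderate group mean lay above control and below severe for most members, and at 8 h it did so in fewer. The rule capped severe minus control at 8 h and set a minimum for it at 12 and 24 h. Nothing is therefore read from this change between 8 h and the late times. The moderate-minus-control median was 0.08, 0.21, 0.29 and 0.69 (log2) at 4, 8, 12 and 24 h, beside the severe-minus-control medians given above, and both share the same control libraries. The severe-minus-moderate median was -0.05, 0.02, 0.77 and 0.61, and after quantile normalization it was -0.06, -0.05, 0.48 and 0.30, so that its sign at 8 h and its size at 12 and 24 h depend on the scaling. The group means were ordered control, moderate, severe in 45 members at 8 h (30.6% of all listed genes). They were so ordered in 116 members at 12 h (35.1%) and 122 at 24 h (38.6%). At 12 and 24 h the rule puts severe above control in every member, beside 51.2% and 53.2% of all tested genes. The member counts and the shares of all genes are therefore not comparable at these times. The limma fit called 0 members higher in moderate hypoxia than in control at 12 h (0% of all tested genes, and 25 members at an unadjusted p under 0.05) and 58 at 24 h (16.6%). At 4 and 8 h it called 0 members higher in moderate hypoxia than in control (0.0377% and 0.188% of all tested genes; 4 and 9 members at an unadjusted p under 0.05) and 0 higher in severe than in moderate hypoxia (3.43% and 9.3%; 0 and 3 members). It called 78 higher in severe than in moderate hypoxia at 12 h (25.8%) and 38 at 24 h (15%). These contrasts contain libraries that chose the members, so their calls are a description. In 12 members the moderate mean was above the severe mean at 24 h.

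The members also differed in how far they stood from control in moderate hypoxia. At the upper end was c91319_g3, with a moderate-minus-control difference of 1.86 (log2) at 24 h. It held 22.7, 20.1 and 18.7 RPKM in moderate and 27.0, 20.9 and 20.6 RPKM in severe hypoxia at 24 h, against 2.66, 6.16 and 6.85 in control. The hypoxia groups overlapped each other, both lay above the controls of that time, and the lowest control was replicate 1. Its controls at 4 h were widely spread, with 22.9 ± 28.1 RPKM (SD, n = 3), a mean as high as that of severe 24 h (22.8 RPKM). These values entered its early difference. Against its own 0 h (10.6, 7.25 and 5.62 RPKM) its moderate change was 1.32 (SE 0.48, limma adjusted p = 0.0498), just inside the threshold.

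At the lower end was c89970_g3, with -0.51 (log2). At 24 h it held 9.21, 13.8 and 10.5 RPKM in moderate hypoxia, 16.7, 16.3 and 15.3 in control and 33.7, 33.6 and 24.2 in severe hypoxia. At 12 h the severe libraries held 43.0, 59.2 and 22.6 RPKM, the moderate ones 14.9, 12.3 and 7.81 and the controls 13.1, 11.1 and 16.3. All severe libraries were above all controls and all moderate libraries below them at 24 h. The moderate change from its own 0 h was -0.48 (SE 0.27, limma adjusted p = 0.192) and did not pass.

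The 28 members called in moderate hypoxia at 24 h and the other 112 are set side by side here. The severe-minus-control median was 1.22 at 12 h and 1.44 at 24 h in the 28, and 1.04 and 1.26 in the 112 (log2). The severe change from 0 to 24 h had a median of 1.47 in the 28 and 0.87 in the 112. The control change over the same interval was 0.07 in the 28 and -0.35 in the 112. At moderate 12 h the medians were 0.58 and 0.01. The 28 were chosen by their moderate change, so these are descriptions without a test. Of the 114 members that still met the rule without control 24 h replicate 1, 27 were among the 28.

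In the control range 506 genes passed both late thresholds of the rule. The 366 that are not members are, by the rule, those at 0.5 or more at 4 or 8 h. In these 366 the median change from moderate 0 to 24 h was 0.46 (log2), and 83 were called higher, which is 22.7%. Another 177 genes stayed under 0.5 at 4 and 8 h and passed 0.8 at 24 h but not at 12 h; their median was 0.29, with 24 called, or 13.6%. The values of the members, 0.36 and 20%, lay between these, and no test of the difference was made.

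The component with most members was c90912, with 3. Over the severe 24 h libraries c90912_g8 held 128, 103 and 82.2 RPKM and c90912_g9 held 119, 97.4 and 85.1, and over the controls of that time they held 39.0, 32.1 and 38.8 and 24.6, 30.5 and 34.0. The third, c90912_g7, was lower, with 29.6, 24.4 and 20.3 RPKM in severe hypoxia against 2.67, 7.87 and 7.33 in control. At severe 24 h the libraries stood in the same order for all 3 genes, while at severe 12 h the order differed between c90912_g7 and c90912_g8. None of the 3 was called in moderate hypoxia at 24 h against 0 h, with changes of 0.38, 0.50 and 0.42 (log2) for c90912_g7, c90912_g8 and c90912_g9. The 134 components of the members held 40 further listed genes, of which 25 were at least 0.8 higher and 4 at least 0.8 lower than control at severe 24 h. Over all tested genes the quartiles of this difference were -0.83 and 1.16 (log2). The share of all genes beyond 0.8 was not counted, so nothing is read from the 25 and the 4.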

How the data were processed

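Liver RNA of 45 fish samples was sequenced as 125-bp paired-end TruSeq libraries and assembled with Trinity, per the labels' protocols. The values deposited for each library are RPKM, as judged from the numbers themselves, since the headers name no unit; for aligner, counter and gene selection the step is not given in the sources used here. Whole reads, gene lengths and totals were recovered from them: all 117443 values above 0 came out whole within 0.01 reads. Each length was the smallest that made a gene's values whole, so wholeness does not show that a length is right. On simulated reads 45 of 45 totals and 557 of 600 lengths came out exact. Some recovered lengths and read numbers may therefore be wrong. No 2 of the 990 library pairs agreed within counting noise (lowest chi-square per gene 24.9).

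The filter asked for 1 RPKM or more in 3 or more libraries and kept 2656 of 2660 genes, all 140 members included. One model of 15 group means was fitted to log2(RPKM + 1) of the 45 libraries with limma 3.58.1 (trended variances, R 4.3.3), and p-values were Benjamini-Hochberg adjusted over all tested genes. A gene is called when the adjusted p is under 0.05. Counts at an unadjusted p under 0.05 were made for the members only. Without the share of all tested genes beside them, they show no excess of the members. The fit was tested on simulated data for moderate 24 h against 0 h. It called 89.8% of 98 genes changed 4-fold, 38% of 100 genes changed 2-fold and 8 unchanged genes. A gene that is not called may therefore still have changed. The pseudocount of 1 understates fold changes of low genes. Missing values of control 8 h replicate 2 were left out of the fit. The labels name no batch.

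Alternatives were pseudocounts of 0.1 and 0.5, no filter, quantile normalization, variances without trend, the compared groups alone, a replicate block, limma-voom on recovered reads, other thresholds and leaving out libraries. Members, lists and tests were chosen with earlier results of these data known. Genes named are, among members, the 2 largest called rises and falls per test (the smallest p where none was called), the largest and smallest late severe and moderate differences, the 2 most abundant, the nearest to each threshold and those of the components with most members.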

Additional observations from a re-analysis of the deposited data

How the results depend on the processing

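The number of members depended on the processing: it was 85 after quantile normalization (63 shared with the 140), 50 with thresholds of 0.4 and 1.0, and 95 to 196 when 1 library was left out (95 without severe 8 h replicate 1, 196 without severe 8 h replicate 3). A pseudocount of 0.1 also gave 140 genes, of which 109 were shared, and one of 0.5 gave 138, of which 123 were shared. Without control 24 h replicate 1 and severe 8 h replicate 3 together, a choice made after seeing the data, it was 168, with 114 shared. Quantile normalization moved the median of all tested genes in severe minus control at 24 h from 0.22 to 0.03 (log2), and the median of the 140 members to 0.89 at 12 h and 0.93 at 24 h. At 24 h the listed subset took up 14.95%, 14.82% and 14.28% of the severe library totals. In the control libraries of that time it took up 11.46%, 12.27% and 12.75%. Whether quantile normalization removed a real shift of this subset was not tested. Leaving out 1 library gave medians of -0.0041 to 0.1776 at 4 h, 0.0562 to 0.4074 at 8 h, 0.994 to 1.1639 at 12 h and 1.0979 to 1.3992 at 24 h.

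Members called higher in moderate hypoxia at 24 h numbered 26 with voom, 27 to 33 under the other whole-sample settings and 20 to 24 with 1 library left out. At moderate 12 h there were 2 after quantile normalization and 0 to 3 with 1 library left out; at 0, 4 and 8 h every setting run gave 0. Late against early gave 13 after quantile normalization, 3 in the model of the compared groups alone and 3 to 15 with 1 library left out. The moderate course gave 6 in the model of the compared groups alone and 4 to 22 with 1 library left out. For c91766_g4 the moderate 12 h change passed after quantile normalization (1.22, limma adjusted p = 0.0490), with adjusted p from 0.00364 to 0.431 over its alternatives. For c89745_g6 the call in the moderate course was lost in the compared groups alone (limma adjusted p = 0.101), with adjusted p from 0.000172 to 0.0174 under its other alternatives. The cause of these changes was not tested. The share of all tested genes called was not counted under any alternative. Whether the members or the whole list moved is therefore not known. Among the single genes followed across settings, no change turned its direction; the directions of the other called members were not compared.

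In their deviations from the group means, same-numbered libraries had a median r of -0.0121 over 315 pairs (from -0.54 to 0.667). Libraries of different numbers had a median r of 0.00623. The pairs include libraries of different oxygen levels, which had different tanks. They cannot show whether same-numbered libraries of the same level shared a tank over time. The numbers were not taken as pairs. The replicate block likewise used the same effect of a number for all levels. With the replicate block, moderate 24 h gave 28 members, late against early 8 and the course 19, and the block changed the call of no single gene followed across settings; whether the same members were called was not compared. Depth limits the lowest values: 3 members had under 10 reads in some library.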
